A study of Mus musculus with 14 samples.

Results

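The Gadd45 genes were followed through ATAC-seq of mouse liver, an assay in which a transposase cuts and tags open DNA, so that the read count of an interval measures its accessibility. The family has 3 genes, Gadd45a, Gadd45b and Gadd45g, among the 21900 protein-coding genes of the RefSeq annotation. An interval was given to a gene when its midpoint lay inside that gene's bounds, and otherwise to whichever protein-coding gene lay closest, up to 50000 bp away. By this rule 18 of 88203 intervals of the chow table belonged to the family, 3 at Gadd45a and 15 at Gadd45g. In the high-fat table it was 18 of 105801 intervals, 4 at Gadd45a and 14 at Gadd45g. No interval of either table was assigned to Gadd45b, so its accessibility was not analysed here. The family was chosen by its LKO and floxed accessibility values, with the results of these same genotype comparisons known, so its values are given as a description, and the adjusted p-values from the fits across whole tables are not independent evidence.

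The libraries came from nuclei of 50 mg frozen liver of 14 female mice. All carried a floxed Matr3 gene, which encodes matrin-3, a nuclear protein that binds RNA and DNA. Liver-specific knockout littermates (LKO) also carried Albumin-Cre, which is active in hepatocytes, so that other liver cells should keep the gene. Mice received chow (3 floxed and 3 LKO) or a diet with 60 kcal% fat (4 floxed and 4 LKO) from 7 weeks of age for 16 weeks. The high-fat mice were fasted for 12 h before their tissue was taken, and whether the chow mice were fasted is not stated in the labels. Diet, feeding state, sequencing depth and the set of intervals thus differ together between the tables and cannot be told apart, and genotypes were compared within a diet. In whole liver, fewer cells of a type and less accessibility per cell cannot be told apart either.

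Gadd45 proteins are small acidic nuclear proteins without enzymatic activity of their own, induced by DNA damage, growth arrest, nutrient shortage and cytokines. They bind and activate the kinase MAP3K4 (MTK1), which feeds the p38 and JNK pathways, and they also bind PCNA, the cyclin-dependent kinase inhibitor p21 and the CDK1-cyclin B complex. Gadd45a is the classical p53 target of the family, Gadd45b responds to NF-kappaB and TGF-beta and is induced early in liver regeneration, and Gadd45g responds to cytokines.

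The RefSeq promoters (GRCm38.p6, the assembly that mm10 names; the 250 bases before each gene's start, 5′ to 3′ on the gene's strand) of both genes with intervals are shown because an interval covered each of them, and Gadd45g's had a higher signal in LKO on the high-fat diet. Capitals mark the CCAAT box, the TATA box TATAAA, the GC box GGGCGG (read on the other strand), the E-box CACGTG and the ATF4-C/EBP element TGATGNAAN (read on the other strand). None of the marked stretches overlap one another.
Gadd45a, chr6:67037408-67037657, minus strand: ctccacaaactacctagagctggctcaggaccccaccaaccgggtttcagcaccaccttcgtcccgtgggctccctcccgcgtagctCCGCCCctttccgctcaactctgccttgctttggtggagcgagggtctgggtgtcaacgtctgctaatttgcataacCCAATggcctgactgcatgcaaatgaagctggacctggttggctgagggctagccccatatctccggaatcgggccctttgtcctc
Gadd45g, chr13:51846425-51846674, plus strand: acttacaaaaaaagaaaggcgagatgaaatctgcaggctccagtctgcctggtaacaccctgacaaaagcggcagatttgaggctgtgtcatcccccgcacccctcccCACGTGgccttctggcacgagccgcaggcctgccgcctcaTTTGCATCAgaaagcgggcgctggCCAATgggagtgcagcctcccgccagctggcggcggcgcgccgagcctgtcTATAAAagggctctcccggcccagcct

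Both promoters held 1 CCAAT box, a motif found on either strand in 33.8% of 32851 promoters of this length. The Gadd45g promoter held TATAAA 27 to 22 bases before the start (12.4% of promoters have it), CACGTG (6.02%) and TGATGNAAN (3.44%), and the Gadd45a promoter held none of these. The Gadd45a promoter held GGGCGG, present in 32.7% of promoters, which was not found in the Gadd45g window. The AP-1 motif TGANTCA (6.75% of promoters), the cyclic AMP element TGACGTCA (1.55%) and the forkhead motif GTAAACA (3.17%) matched neither. A match describes letters in this window, not bound protein. GC content was 59.2% at Gadd45a and 62.0% at Gadd45g, against a median of 52.4% over all promoters. The intervals at the gene starts covered all 250 bases at Gadd45a in both tables, and 196 (chow) and 192 (high-fat) bases at Gadd45g.

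Gadd45g (chr13:51846675-51848475, plus strand, 1801 bp) had the family's larger fold changes, and they were of opposite sign on the 2 diets at most intervals. Levels below are counts scaled to library size by TMM factors (CPM), with SD, and fold changes are log2 of LKO over floxed with the standard error (SE) of the edgeR quasi-likelihood fit. An interval is called where its Benjamini-Hochberg adjusted p over all intervals of its table is below 0.05. On chow, the Gadd45g fold change was negative (LKO below floxed) at all 15 intervals, furthest from 0 just beyond the gene's end, but none was called. On the high-fat diet it was positive at 11 of 14 intervals, and 2 were called as higher in LKO, 1 at the start and 1 downstream of the gene. The difference between the diets was called at both downstream intervals.

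**Figure D1:**
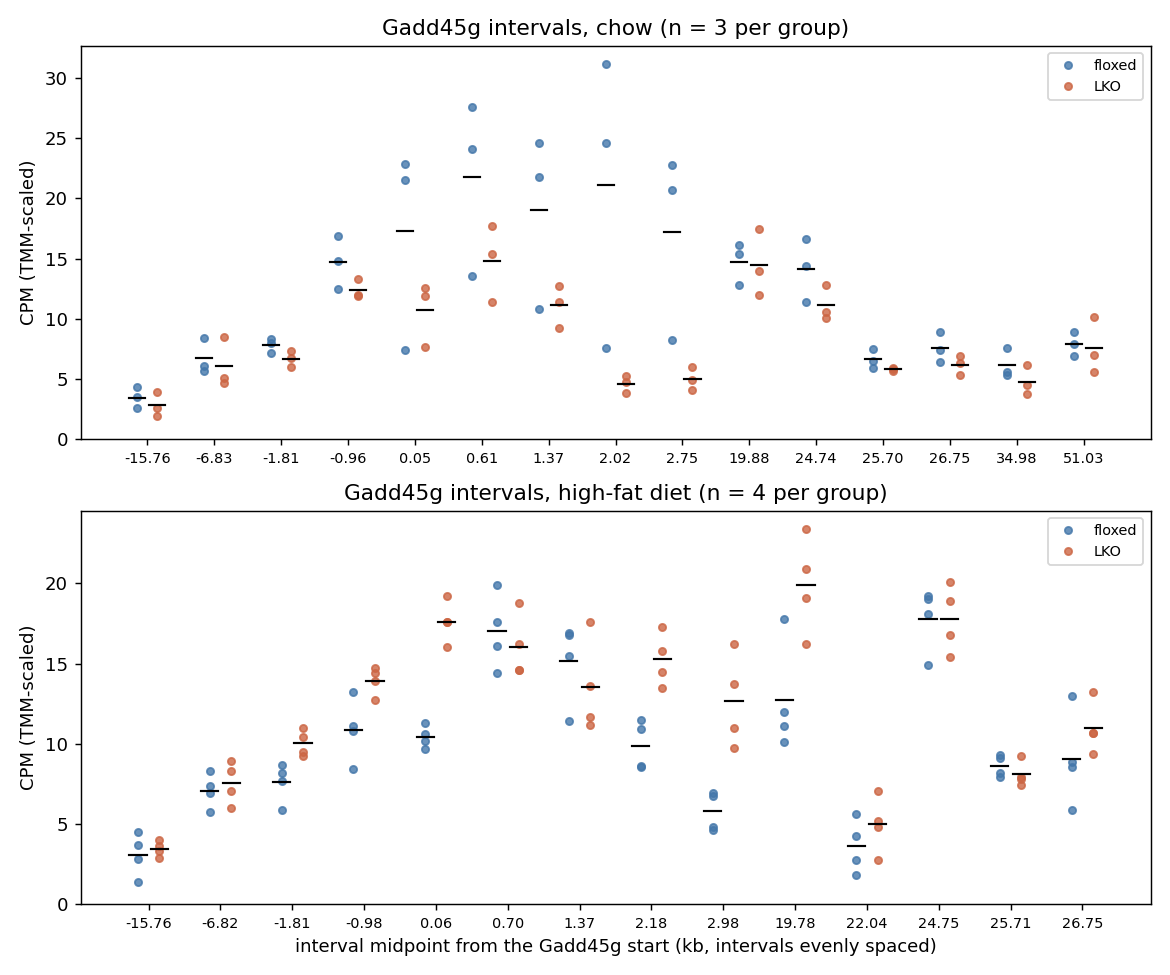
Levels (CPM, y axis) of every Gadd45g interval in each library, with black bars at the group means, against the midpoint's distance from the gene's start in kb (x axis, evenly spaced); upper panel chow, lower panel high-fat diet. On chow the floxed points at the start, in the gene and just beyond its end spread widely and mostly lie above LKO. On the high-fat diet the LKO points lie above floxed at the start and just beyond the end, and the groups overlap farther downstream.

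On chow, the interval at the Gadd45g start (chr13:51846479-51846979, with its midpoint 54 bp inside the gene) had 21.5, 7.45 and 22.9 CPM in floxed mice 1, 2 and 3, and 11.9, 7.65 and 12.6 CPM in LKO mice 1, 2 and 3. Floxed mouse 2 lay at the level of the lowest LKO mouse, and the groups overlapped. The means were 17.3 ± 8.54 and 10.7 ± 2.69 CPM (SD, n = 3), and the fitted log2 fold change was -0.69 (SE 0.345, edgeR adjusted p = 0.753). The interval of highest level, 607 bp into the gene (chr13:51847032-51847532), had 24.1, 13.6 and 27.6 CPM in floxed and 15.4, 11.4 and 17.7 CPM in LKO. It overlapped between the groups in the same way, with floxed mouse 2 lowest of its group. Its log2 fold change was -0.55 (SE 0.247, edgeR adjusted p = 0.738). The third interval inside the gene, 1367 bp from the start, had 19.1 ± 7.28 CPM in floxed and 11.1 ± 1.72 CPM in LKO (log2 -0.79).

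The widest gaps on chow were at 2 intervals beyond the end of Gadd45g. The first (chr13:51848445-51848945) straddles the gene's end and lies outside the rule for named intervals; it was chosen after its values were seen. It had 24.6, 7.57 and 31.2 CPM in floxed and 3.86, 4.77 and 5.27 CPM in LKO. All LKO mice lay below all floxed mice, and the floxed mean of 21.1 ± 12.2 CPM was 4.56-fold the LKO mean of 4.63 ± 0.715 CPM. Its log2 fold change of -2.20 (SE 0.404) did not pass the threshold (edgeR adjusted p = 0.153). The second (chr13:51849177-51849677), its midpoint 952 bp beyond the end, had 20.7, 8.25 and 22.8 CPM in floxed and 4.06, 4.95 and 6.01 CPM in LKO. The groups again did not overlap, and the floxed mean of 17.2 ± 7.85 CPM was 3.44-fold the LKO mean of 5.01 ± 0.978 CPM (log2 -1.79, SE 0.327, edgeR adjusted p = 0.15).

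These chow values turned on floxed mouse 2, whose library held 17.1 M counts against 31.4 and 33.2 M in the other floxed libraries. LKO mouse 2, with 15.5 M against 31.3 and 35 M, was shallow as well. Without floxed mouse 2, edgeR gave -2.59 at the first downstream interval (adjusted p = 0.000206), -2.11 at the second (adjusted p = 0.000597) and -1.03 at the start (adjusted p = 0.0457), and called 4 of 18 Gadd45 intervals. Without both libraries numbered 2, the start was not called (-0.85, edgeR adjusted p = 0.0636), and 2 Gadd45 intervals were, both downstream ones. On all 6 libraries with the library number as a block, the start was not called either (-0.61, edgeR adjusted p = 0.203). DESeq2 and limma voom on all 6 libraries each called the 2 downstream intervals, with adjusted p of 0.0319 and 0.0271 at the first, and 2.19e-05 and 0.0195 at the second. Over all alternatives the adjusted p ran from 0.000206 to 0.523 at the first and from 2.19e-05 to 0.521 at the second. Whether depth or this mouse's liver set its level was not tested.

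Over all 15 chow intervals of Gadd45g the log2 fold change ran from -2.20 to -0.02 with a median of -0.31, against -0.0032 over all intervals of the table. edgeR called 0 of the 18 Gadd45 intervals on chow, where 0.0227% of all intervals were called (0.00113% higher and 0.0215% lower in LKO; 20 in all, or 126 with the library number as a block, again 0 of Gadd45). At an unadjusted p below 0.05 there were 4 Gadd45 intervals, all at Gadd45g, and 5972 in the whole table. The groups did not overlap at 3 of the 18 intervals, all lower in LKO, against 11.7% of all intervals in either direction, with 5.63% higher and 6.04% lower in LKO. The third of these, 23897 bp beyond the gene, differed little (6.65 ± 0.809 and 5.81 ± 0.141 CPM). Interval names begin with the genotype, KO or WT, and 12 of the 15 carried WT, against 50.1% of the table. The names come with the same data as the levels, so they are not separate evidence for a direction.

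Among high-fat mice, the interval at the Gadd45g start (chr13:51846483-51846983) had 10.6, 10.2, 9.67 and 11.3 CPM in floxed mice 1 to 4 and 17.6, 17.6, 19.2 and 16 CPM in LKO mice 1 to 4. Every LKO mouse lay above every floxed mouse, and both groups were tight. The means were 10.4 ± 0.675 and 17.6 ± 1.29 CPM (n = 4), a 1.69-fold higher level in LKO (log2 0.75, SE 0.151, edgeR adjusted p = 0.00914). The adjusted p was 0.0512 without LKO mouse 3, and at most that under any alternative. The first downstream interval (chr13:51848601-51849101) had 10.9, 11.5, 8.54 and 8.64 CPM in floxed and 17.3, 13.5, 14.5 and 15.8 CPM in LKO. The groups did not overlap there either, but the log2 fold change of 0.62 (SE 0.165) did not pass the threshold (edgeR adjusted p = 0.0724). The second (chr13:51849402-51849902), its midpoint 1177 bp beyond the end, had 4.61, 6.92, 6.78 and 4.84 CPM in floxed and 9.76, 13.7, 11 and 16.2 CPM in LKO. It rose 2.18-fold, from 5.79 ± 1.24 to 12.6 ± 2.86 CPM, without overlap (log2 1.12, SE 0.203, edgeR adjusted p = 0.00426), and was called under every alternative run (adjusted p 0.000472 to 0.0357).

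**Figure D2:**
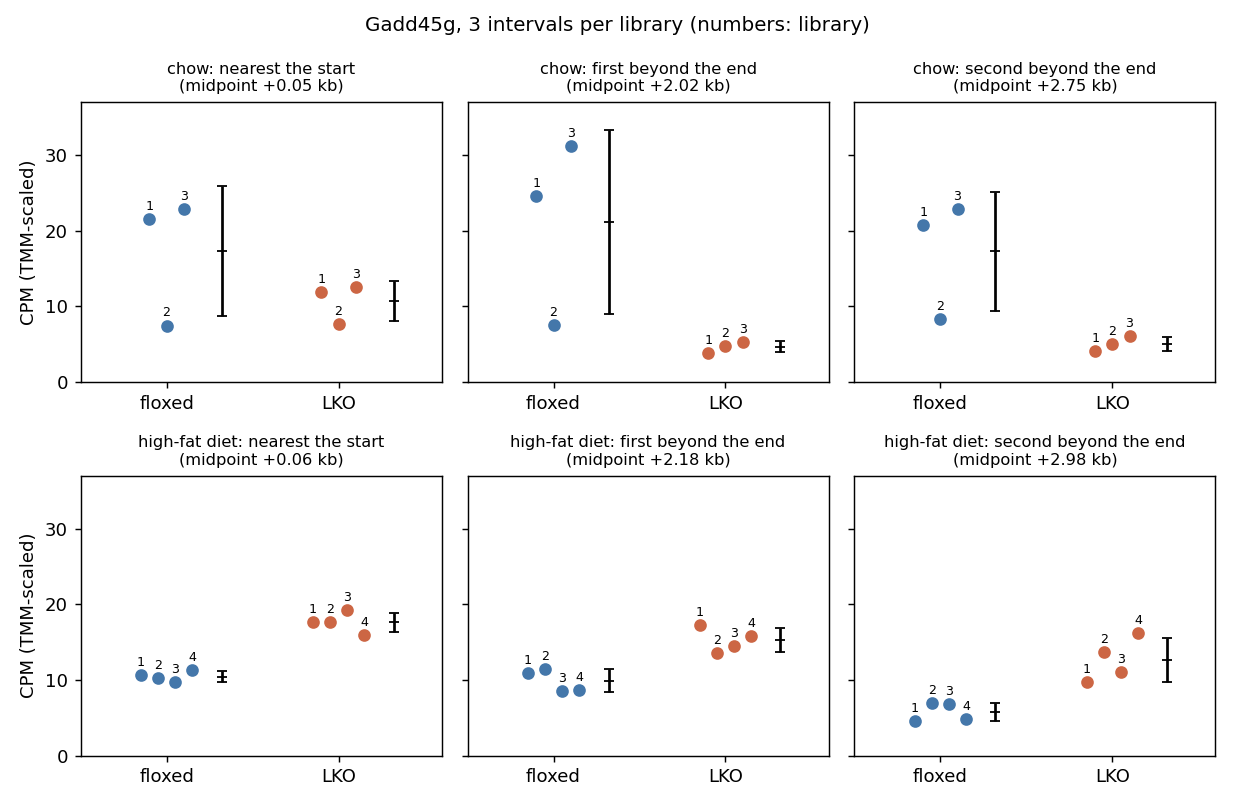
Levels (CPM, y axis) per library at the Gadd45g start and at both downstream intervals, with chow above and high-fat diet below; points are single mice, numbered, and bars are mean and SD. Floxed mouse 2 stands low in all 3 chow panels (7.45, 7.57 and 8.25 CPM), and in all 3 high-fat panels every LKO point lies above every floxed point.

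Fold changes were not of one sign along the gene, though the difference between its intervals was not tested. Both other intervals inside Gadd45g had log2 fold changes of -0.08 (17 ± 2.35 and 16 ± 1.97 CPM) and -0.16 (15.1 ± 2.6 and 13.5 ± 2.89 CPM), with overlapping groups. Upstream, the interval 1811 bp before the start did not overlap between groups (7.61 ± 1.22 and 10 ± 0.823 CPM), though its log2 fold change of 0.40 was not called (edgeR adjusted p = 0.443). An interval 17976 bp beyond the end (chr13:51866201-51866701) had 10.1, 11.1, 17.8 and 12 CPM in floxed and 16.2, 19.1, 20.9 and 23.4 CPM in LKO. Only floxed mouse 3 reached into the LKO range, and the log2 fold change was 0.64 (edgeR adjusted p = 0.0636). The interval of highest level, 22946 bp beyond the end (chr13:51871171-51871671), had 17.8 ± 1.98 CPM in floxed and 17.8 ± 2.07 CPM in LKO. It held no difference beyond its spread (edgeR adjusted p = 0.999).

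Over the 14 high-fat intervals of Gadd45g the log2 fold change ran from -0.16 to 1.12 with a median of 0.31, against -0.0039 over all intervals of the table. edgeR called 2 of the 18 Gadd45 intervals, both higher in LKO, where 0.751% of all intervals were called in either direction, 0.448% higher and 0.303% lower. The groups did not overlap at 4 of the 18, all higher in LKO, against 5.3% of all intervals in either direction, 2.8% higher and 2.5% lower. Of these 14 interval names 11 carried KO, against 49.5% of all names, which again is not separate evidence. Intervals of one gene come from the same livers and are not independent of one another.

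**Figure D3:**
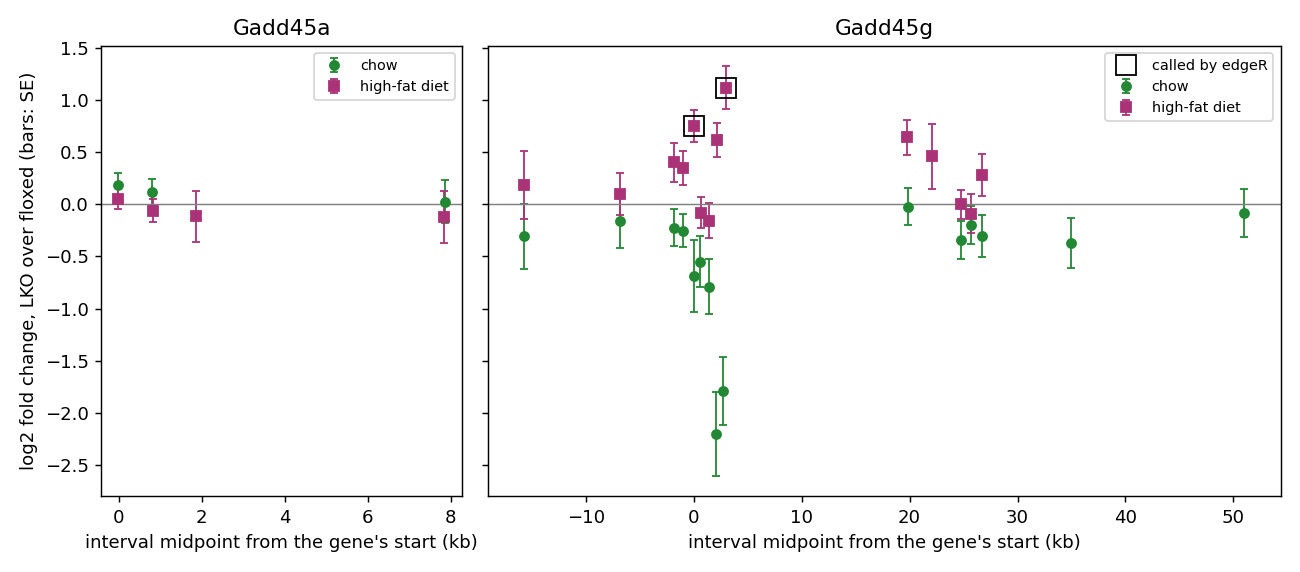
Log2 fold change of LKO over floxed with its SE (y axis) for every Gadd45a and Gadd45g interval, against the midpoint's distance from the gene's start in kb (x axis); circles are chow and squares high-fat diet, with a box around called intervals. Gadd45a stays near 0 on both diets, while at Gadd45g the diets separate most beyond the gene's end, from -2.20 on chow to 1.12 on the high-fat diet.

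Whether the genotype effect itself differed between the diets was tested in 1 fit of all 14 libraries on 73945 intervals matched between the tables with at least 50% overlap. Of 16 matched Gadd45 intervals 2 were called, both at Gadd45g with the high-fat effect above the chow effect, where 0.183% of all matched intervals were called in either direction, 0.134% in this one and 0.0487% in the other. At the first downstream interval the difference was 2.85 (SE 0.403, edgeR adjusted p = 0.0021), and at the second 2.94 (SE 0.379, edgeR adjusted p = 0.00111). Both pairs of windows are offset between the tables, by 156 and 225 bp, with overlaps of 68.9% and 55.1%, so the diets were not read over the same bases. At least 80% overlap leaves both out of the fit, and 0 of the remaining Gadd45 intervals were called. The start interval, whose windows overlap by 99.2%, differed by 1.47 (SE 0.348), which did not pass the threshold (edgeR adjusted p = 0.098). All 13 matched Gadd45g intervals had a positive difference, from 0.13 to 2.94 with a median of 0.63, beside 0.0090 over all matched intervals.

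Summed over its intervals, Gadd45g had 208, 135 and 216 CPM in chow floxed mice and 122, 121 and 130 CPM in chow LKO mice. High-fat sums were 131, 136, 146 and 143 CPM in floxed and 170, 169, 171 and 178 CPM in LKO. Within each diet the groups did not overlap, with LKO lower on chow (log2 ratio of means -0.58) and higher on the high-fat diet (0.31). The gap on chow was narrow, between floxed mouse 2 (135 CPM) and LKO mouse 3 (130 CPM). How many other genes have sums without overlap was not counted, so the lack of overlap is not a result about Gadd45g. The interval sets of the tables differ, so no difference in sums between diets is given.

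**Figure D4:**
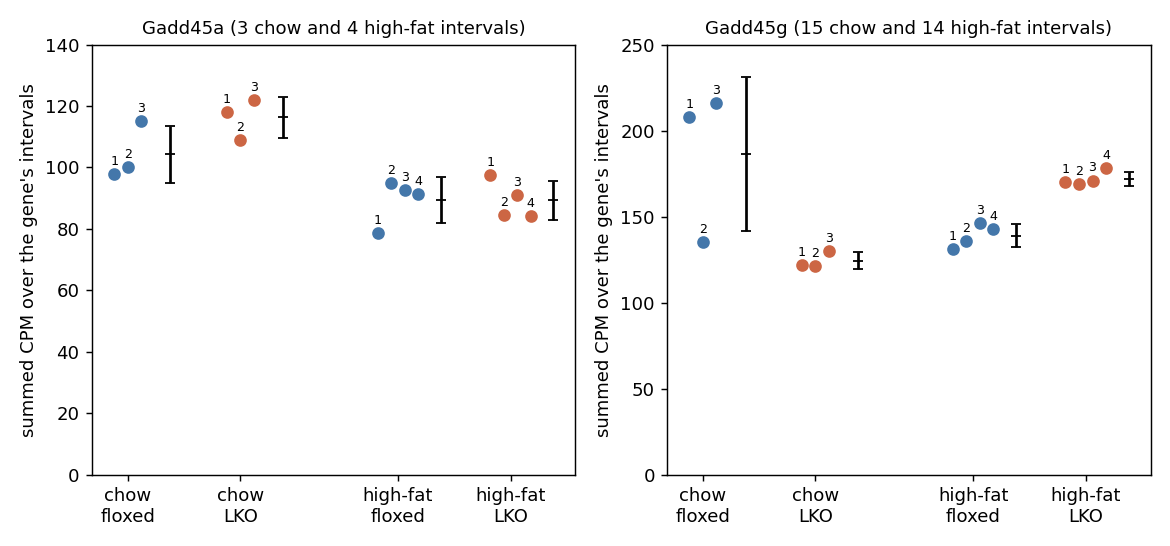
Summed CPM over all intervals of Gadd45a and Gadd45g (y axis) in each library, by diet and genotype; points are single mice, numbered, and bars are mean and SD. Gadd45g sums of floxed and LKO mice lie apart on both diets in opposite order, narrowly on chow, and Gadd45a sums overlap on both.

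The spread among floxed mice on chow differed along Gadd45g. Over its 15 intervals the SD of log2 level ranked from the 18.2 to the 99.6 percentile of the table, highest at and just beyond the gene. The SD of log2 level over the 3 floxed mice was 0.874 at the start, 1.06 at the first and 0.778 at the second downstream interval, where the median over all chow intervals was 0.206. These values ranked at the 99.2, 99.6 and 98.8 percentiles. Floxed mouse 2 stood low at all 3 intervals (7.45, 7.57 and 8.25 CPM), so the spread rests mostly on 1 library. In the LKO mice the SD at the same intervals was 0.376, 0.206 and 0.257 (86.7, 51.4 and 65.5 percentiles), against a median of 0.202. High-fat floxed mice had SDs of 0.0887, 0.212 and 0.287 there, at the 5.22, 37.7 and 59.8 percentiles of their table.

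Within Gadd45g, levels at the start moved with those downstream across the 6 chow libraries (Pearson r 0.81 and 0.787 with the downstream intervals) and the 8 high-fat libraries (0.845 and 0.803). These libraries include both genotypes, so the values contain the group difference. Inside the gene r with the start was 0.974 and 0.844 on chow, and -0.165 and -0.318 on the high-fat diet. At the edge of the 50000 bp window the last chow member, 49.2 kb beyond the end, had 7.92 ± 1.01 CPM in floxed and 7.6 ± 2.32 CPM in LKO. The next interval outside, at 54.6 kb, had 16.9 ± 3.71 and 18.1 ± 1.55 CPM on chow, and 10.4 ± 1.55 and 13.3 ± 1.28 CPM on the high-fat diet.

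Gadd45a (chr6:67035096-67037407, minus strand, 2312 bp), the classical p53 target of the family, had a higher level at its start than Gadd45g in windows of equal width, and none of its intervals was called. On chow the interval at its start (chr6:67037181-67037681), also its highest, had 58.5, 58.4 and 71.1 CPM in floxed and 70.1, 69.6 and 74.3 CPM in LKO. Floxed mouse 3 lay within the LKO range, and the means of 62.7 ± 7.29 and 71.3 ± 2.6 CPM gave a log2 fold change of 0.19 (SE 0.111, edgeR adjusted p = 0.771). In the high-fat table (chr6:67037179-67037679) it had 40.5, 52.2, 53.1 and 53.8 CPM in floxed and 58.5, 46.7, 53.3 and 48.9 CPM in LKO. The groups overlapped, floxed mouse 1 stood lowest, and the log2 fold change was 0.06 (SE 0.104, edgeR adjusted p = 0.921). This level ranked at the 99.7 percentile of all chow and the 99.6 percentile of all high-fat intervals, against 76.2 and 83.4 for the Gadd45g start. The annotated transcript E230016M11Rik overlaps the start of Gadd45a, so the interval cannot be assigned to one of them.

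Inside Gadd45a, beside the start, levels were 37.1 ± 2.26 and 40.2 ± 4.48 CPM on chow in floxed and LKO. In high-fat mice they were 29.6 ± 1.6 and 28.4 ± 2.14 CPM (edgeR adjusted p = 0.92, the smallest at Gadd45a there). edgeR called 0 of 3 chow and 0 of 4 high-fat intervals of Gadd45a, and at an unadjusted p below 0.05 there were also 0. The summed level was 104 ± 9.43 and 116 ± 6.84 CPM on chow, and 89.4 ± 7.39 and 89.4 ± 6.37 CPM on the high-fat diet. The difference between diets was small at its 3 matched intervals, from -0.15 to -0.10 on the log2 scale (edgeR adjusted p 0.89 to 0.965).

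Across all 14 libraries, the Pearson r of the summed log2 levels of Gadd45a and Gadd45g was -0.167. Among 14706 genes compared, those most like Gadd45g were Wdr72 (r 0.919), Egfr (0.914) and Prdm2 (0.911), and those most like Gadd45a were Zbtb44 (0.935), Fam241a (0.934) and Amer1 (0.931). Egfr, the receptor for epidermal growth factor, summed to 1360 ± 452 CPM in floxed and 620 ± 154 CPM in LKO on chow, and to 601 ± 37.1 and 1120 ± 199 CPM on the high-fat diet. These r values used levels centred on each gene's mean within a diet, so mean differences between diets do not enter them. They still span libraries of both genotypes and of both diets, whose interval sets and depth differ, and are a description.

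The genes around the family were read from 5 lists with 79 genes, of which 78 had intervals (Atf4 had none). On chow edgeR called 0 of their 650 intervals, with 39 at an unadjusted p below 0.05. Table-wide, 0.0227% were called and 5972 of 88203 had such a p, so neither count is a result about the lists. Of the list genes, only those named on the high-fat diet were read from the DESeq2 and limma voom fits, which covered whole tables. On the high-fat diet 18 of 943 intervals (1.91%, beside 0.751% of the table) were called, at 4 genes. Of these 18, 14 were intervals of Nr4a1 alone, which are not independent of one another. The share is thus not a result about the lists as a whole. Of 16 partners and effectors, such as Map3k4, Pcna and Cdkn1a, only Map2k6 was called, the kinase upstream of p38. Its interval fell from 18.3 ± 3.58 to 11.4 ± 1.49 CPM (log2 -0.69, edgeR adjusted p = 0.0348), as 1 of its 21 intervals. It was no longer called without LKO mouse 2, 3 or 4 (adjusted p of 0.112, 0.0672 and 0.147) or floxed mouse 2 or 4 (0.184 and 0.143).

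Of 20 regulators of Gadd45 genes only Ppara, the nuclear receptor of fatty acid oxidation, was called, at 2 of 108 intervals. Its leading interval fell from 9.43 ± 2.69 to 4.2 ± 1.8 CPM (log2 -1.15, edgeR adjusted p = 0.0186), and was not called without LKO mouse 3 or 4 or floxed mouse 4 (adjusted p of 0.0993, 0.101 and 0.162). None of 18 p53 target and DNA damage genes was called by edgeR (0 of 126 intervals, 4 at an unadjusted p below 0.05), where 0.751% of the table was called and 10801 of 105801 intervals had such a p. At that share a count of 0 says little about these genes. Of 11 integrated stress response genes Ddit4, an inhibitor of mTORC1, was called at 1 of 9 intervals, where it rose from 5.86 ± 0.793 to 11.5 ± 1.35 CPM (log2 0.97, edgeR adjusted p = 0.00698). Of 17 immediate early genes Nr4a1, an inducible orphan nuclear receptor, was called at 14 of 31 intervals. Its leading interval rose from 5.34 ± 1.2 to 15.6 ± 2.42 CPM (log2 1.54, edgeR adjusted p = 4.63e-05). Ddit4 and Nr4a1 were called under every alternative run.

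Median log2 fold changes of these lists on the high-fat diet were -0.04 for partners, -0.10 for regulators, -0.04 for p53 targets, 0.04 for the integrated stress response and 0.11 for immediate early genes. On chow they were 0.03, -0.02, -0.01, 0.08 and 0.01. The test of the difference between diets called 0 of 563 matched intervals of the lists by edgeR, with 51 at an unadjusted p below 0.05, beside 0.183% called and 5498 of 73945 at such a p over all matched intervals. At that share a count of 0 is not a result about the lists.

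Counts per library summed to 15.5 to 35 M on chow and 7.59 to 10.4 M on the high-fat diet. Matr3 itself had 7 intervals in each table, with summed levels of 89.9 to 91.4 CPM in floxed and 83.2 to 88.2 CPM in LKO on chow, and 69.9 to 96.7 and 72.6 to 81.7 CPM on the high-fat diet. No Matr3 interval was called (smallest edgeR adjusted p 0.766 and 0.228), and accessibility does not show whether the floxed part was deleted. All 8 hepatocyte markers had intervals, with sums of 4350 to 5940 CPM in floxed and 4150 to 5010 CPM in LKO on chow, and 2830 to 4970 and 2630 to 3570 CPM on the high-fat diet. These sums overlapped, but on the high-fat diet edgeR called 33 of 340 hepatocyte marker intervals lower and 1 higher in LKO (0.751% of the table was called), at Alb, Ttr and Apob. On chow 1 of 313 was called, an Alb interval higher in LKO (log2 1.29, edgeR adjusted p = 0.041). The 1 called higher on the high-fat diet was an Alb interval that overlaps it (log2 1.42, edgeR adjusted p = 8.96e-08). Only LKO mice carried Albumin-Cre, so knockout and transgene cannot be told apart at these Alb intervals. Kupffer cell markers (7 of 8 with intervals, Timd4 without) summed to 117 to 160 CPM in floxed and 147 to 162 CPM in LKO on the high-fat diet, and on chow (6 of 8, Timd4 and Vsig4 without) to 76.4 to 108 and 66.5 to 94.1 CPM. Biliary markers (3 of 5, Krt19 and Krt7 without) did not overlap on the high-fat diet, at 52.9 to 59.4 CPM in floxed and 59.5 to 65.4 CPM in LKO, but did on chow, at 81.9 to 88.5 and 77 to 97 CPM. Lymphocyte markers (3 of 8 on chow, 4 of 8 on the high-fat diet) did not overlap on chow, at 69 to 75.2 CPM in floxed and 82.2 to 101 CPM in LKO, but did on the high-fat diet, at 69.8 to 81.7 and 72.6 to 77.8 CPM. Endothelial markers summed to 373 to 382 CPM in floxed and 325 to 380 CPM in LKO on chow, and to 436 to 525 and 438 to 500 CPM on the high-fat diet. Stellate markers (7 of 8, Dcn without) summed to 111 to 136 and 115 to 137 CPM on chow, and to 85.8 to 107 and 92.1 to 121 CPM on the high-fat diet. The biliary gap was narrow (59.4 and 59.5 CPM). How many other gene sets have sums without overlap was not counted. Lack of overlap in the biliary and lymphocyte sums is thus not a result about these cells. The part of cell composition in the Gadd45g values was not tested.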

How the data were processed

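The authors deposited 1 table per diet of whole-number read counts per 501 bp interval and library, in mm10 coordinates per the labels. Per the submitters' processing notes, the tools included MACS2 2.2.7.1 and HOMER 4.11, Bowtie2 2.4.2 and Trim Galore 0.6.7, besides ChIPseeker, DESeq2 and bedtools; the notes give no roles. How duplicate reads and the transposase offset were handled is not stated in the labels. The titles number the females singly, so each library was read as 1 mouse. Chow columns carry a genotype and a number and were used as members of their group.

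Each table was fitted whole with edgeR 4.0.16 in R 4.3.3 (TMM, filterByExpr, which removed 0 intervals, quasi-likelihood test of genotype, Benjamini-Hochberg at 0.05), with DESeq2 1.42.0 and limma 3.58.1 voom as alternatives. The fits were tested on simulated data. Correlations used log2(CPM + 0.5). Precision reflects the number of mice and the depth given above.

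The genes, the lists and the tests were chosen with earlier results of these data known. Named intervals were, per gene and table, the one nearest the start, the highest, those called and, where none was, the one of smallest p. Listed genes were named where an interval was called. Deviations of same-numbered chow libraries correlated at r 0.191, 0.535 and 0.193. LKO 1 with floxed 3 (0.279) and LKO 3 with floxed 1 (0.179) correlated about as well. Only the libraries numbered 2, both shallow, stood apart from the others. These numbers, which come from the column names, were thus not shown to pair the chow libraries. The values given are from the fit without pairing, and the fit with the number as a block is an alternative. High-fat libraries correlated at 0.0679, 0.131, 0.178 and -0.0117, so their numbers were not read as pairs.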

Additional observations from a re-analysis of the deposited data

Results flagged for a closer look

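At the Gadd45a start on the high-fat diet, floxed mouse 1 stood alone at 40.5 CPM below the other floxed mice (52.2 to 53.8 CPM). Its gap was 0.88 of the group's range, past Dixon's 95% limit; 16 groups of 4 libraries were looked at, and chance alone marks about 1 in 20.

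The LKO effect differed between diets at both downstream intervals of Gadd45g, by 2.85 (edgeR adjusted p = 0.0021) at the first and 2.94 (edgeR adjusted p = 0.00111) at the second on the log2 scale, higher on the high-fat diet. All 3 chow LKO mice lay below, and all 4 high-fat LKO mice above, the floxed mice of their diet. Such separation was seen at 6.04% of all chow intervals (LKO lower) and 2.8% of all high-fat intervals (LKO higher). The paired windows overlap by only 68.9% and 55.1%, so the diets were not read over the same bases. The adjusted p ran from 1.44e-08 to 0.0128 and from 1.31e-08 to 0.00887 over the alternatives that kept these pairs.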

How the results depend on the processing

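Calls on chow depended most on the processing. The number of Gadd45 intervals called went from 0 to 2 with voom, 2 with DESeq2 and 2 without both libraries numbered 2, and ran from 0 to 4 when 1 mouse was left out (4 without floxed mouse 2). All chow calls went from 20 to 677 with voom, 544 with DESeq2 and 333 without both libraries numbered 2. Leaving out 1 mouse gave 0 to 604 (0 without LKO 1 or floxed 1, 7 without LKO 2 or floxed 3, 43 without LKO 3, 604 without floxed 2).

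On the high-fat diet leaving out 1 mouse gave 1 to 3 Gadd45 calls (1 without LKO 3) and 304 to 1189 calls in all (359 without LKO 3, 304 without LKO 4, 437 without floxed 2, 326 without floxed 4), against 2 and 795. For the difference between diets, at least 80% overlap left 0 of 2 Gadd45 calls, because both pairs drop out of the fit. All 135 calls became 283 with DESeq2 and 397 without both chow libraries numbered 2 (chosen after seeing the data), and 82 to 370 when 1 mouse was left out (82 without chow LKO 1, 370 without chow floxed 2, 89 without high-fat floxed 4).

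With the replicate number as a block, chow gave 126 calls, with adjusted p of 0.0799 and 0.0678 at the downstream intervals. The high-fat diet gave 1420 calls and 4 at Gadd45 (the first downstream interval at 0.0451), and the difference 301. On neither diet were the numbers shown to be pairs.

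The summed Gadd45g log2 ratio was -0.86 (chow) and 0.37 (high-fat) over intervals within 5000 bp, and ran from -0.77 to -0.46 and from 0.28 to 0.33 when 1 mouse was left out. Signs near 0 turned on the high-fat diet at the Gadd45a start (range -0.033 to 0.104 when 1 mouse was left out; -0.0092 without LKO 1, -0.033 without floxed 1) and at the highest Gadd45g interval (range -0.075 to 0.066; -0.063 without LKO 1, -0.023 without LKO 4, -0.075 without floxed 1). The causes were not tested. With 3 or 4 mice a group, small differences cannot be resolved.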
